A study of Bos taurus with 20 samples.

Results

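Integrins and laminins, the receptor chains that hold cells to the extracellular matrix and a main group of the proteins they hold on to, were examined in clonal bovine MSC populations that can or cannot form adipocytes. The genes were chosen by symbol alone (ITGA or ITGB followed by a chain number or letter, LAMA, LAMB or LAMC followed by a number), which found 37 of the 33063 named genes of the count table. Of these, 26 encode integrin chains and 11 encode laminin chains. RNA came from 20 MSC clones of Holstein Friesian x Aberdeen Angus calves that were at most several months old. Each clone was grown from a single sorted MSC of visceral adipose tissue, on gelatine-coated plastic, in medium with FBS and bFGF. All RNA was taken from undifferentiated cells, so that what separates the groups is how parallel cultures of the same clone later responded to adipogenic medium. The adipogenic (A) group held 10 clones that stained strongly for lipid after differentiation. The non-adipogenic (N) group held 10 clones that failed to form adipocytes in a first differentiation test. Animals 17 and 20 contributed 1 clone to each group, and animals 22 and 23 contributed 4 clones to each. The A clones were the best differentiating clones of a larger screen, with N clones taken from the same animals, so the A group is a selected extreme, and the 20 clones come from 4 animals.

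An integrin is a pair of 1 alpha and 1 beta chain that spans the membrane, binds matrix outside the cell and couples, through talin and kindlin, to the actin cytoskeleton inside it. The pairing sets the ligand. The beta 1 chain joins most alpha chains to make receptors for collagens, laminins or fibronectin, the alpha V chain joins several beta chains to bind proteins with an RGD motif such as vitronectin and fibronectin, and the beta 2 chain is confined to leukocytes. Laminins are cross-shaped trimers of 1 alpha, 1 beta and 1 gamma chain that build basement membranes, the thin matrix sheet that surrounds, among others, mature adipocytes and mesothelial and endothelial layers. During adipogenesis, fibroblast-like precursors on a fibronectin-rich matrix round up and surround themselves with a basement membrane, which is why these genes are of interest in cells with different adipogenic capacity.

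Libraries held 14615493 to 29185355 counts in the A group and 14908802 to 43111345 in the N group. Summed MSC markers (NT5E, CD44, THY1, ENG, PDGFRA and PDGFRB) lay between 1723 and 2572 CPM in A clones and between 1204 and 2237 CPM in N clones. CPM here are counts relative to the library size, scaled by edgeR's TMM factor. N clone 22-5 had the lowest levels of NT5E (0.508 CPM), THY1 (0.395 CPM), ENG (19.1 CPM) and PDGFRB (59.6 CPM) of the N group, so that NT5E and THY1 were nearly absent from a clone labelled as MSC. Summed endothelial markers lay between 5.603 and 26.7 CPM in A and between 1.19 and 41.4 CPM in N clones, with CLDN5 at 0 in all 20 clones and 1 of 4 tested, EGFL7, higher in A clones. Of 2 leukocyte and macrophage markers tested, CD68 was higher in A clones and LCP1 was not (adjusted p = 0.496, edgeR), while the defining marker PTPRC did not exceed 0.253 CPM in any clone. Of 8 mesothelial markers tested, 1 was lower in A clones and none was higher (edgeR), but their sum set single clones apart. The sum of the 11 that the table holds was 10400 CPM in N clone 22-5 and 7294 CPM in N clone 22-9, 1217 and 1059 CPM in A clones 22-11 and 22-16, and at most 639.4 CPM in the other 16 clones. The first pair, which includes the clone nearly without NT5E and THY1, stood far apart from every other N clone, and the main counts below are therefore also given without them, an alternative chosen after the data had been seen. Of the 11 markers, the keratins KRT8 and KRT19 had the highest maxima in N clones, 4779 and 2263 CPM. UPK1B, KRT18, LRRN4, MSLN, WT1 and BNC1 had maxima of 228.9 to 976.7 CPM there. UPK3B reached 14.92 CPM and PKHD1L1 1.525 CPM, and CALB2 was at 0 in every N clone. Summed smooth muscle and pericyte markers were at 4366 to 11710 CPM in A and 1086 to 10050 CPM in N clones, with 2 of 7 higher in A clones. The part of these cell types in the results was not tested.

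Of the 36 genes described here, 27 passed the expression filter and were tested, 20 integrin and 7 laminin chains. Differential expression at an adjusted p under 0.05 was found for 5 of them, or 18.5% (edgeR's quasi-likelihood test with animal as a block and Benjamini-Hochberg adjustment over 12900 genes). Among all genes tested, 20.6% passed the same threshold, so the share of integrin and laminin genes was close to the background. ITGA5, ITGAV and ITGA11 were higher in A clones, and ITGB7 and LAMA5 were lower. With a change of at least 2-fold in addition, 4 of 27 remained, or 14.8%, beside 5.76% of all genes. Past both thresholds, 2 were higher in A clones, a direction taken by 3.95% of all genes, and 2 were lower, a direction taken by 1.81%. A further 5 genes had an unadjusted p under 0.05, which makes 10 of 27 at that level, or 37.0%, beside 36.1% of all genes. Without N clones 22-5 and 22-9, 1 gene (ITGA5) was differentially expressed and none was lower past both thresholds, while the share of all genes fell to 14.2%. Leaving out all 4 clones with more than 1000 CPM of mesothelial markers gave 2 genes, ITGA5 and ITGB7, beside 10.9% of all genes. Without animal 22, where 11.5% of all genes passed, ITGA5 and ITGB7 kept their calls, LAMA4, LAMB1 and ITGA8 gained one, and ITGAV, ITGA11 and LAMA5 lost theirs.

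These genes varied widely from clone to clone within a group. The median absolute log2 fold change of the 27 was 0.81, against 0.25 over all genes tested, while the median SD of log2 CPM between clones of the same animal and condition was 0.90, against 0.32. The signed median log2 fold change was 0.22, against -0.01 over all genes, with 17 chains fitted higher and 10 lower in A clones. No chain placed every A clone on one side of every N clone, which 0.318% of all genes did. The map of the 27 chains by clone shows this spread, with the strongest colours in ITGA7, ITGA11 and LAMA2 and the palest in ITGB1, LAMB2 and LAMC1.

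**Figure D1:**
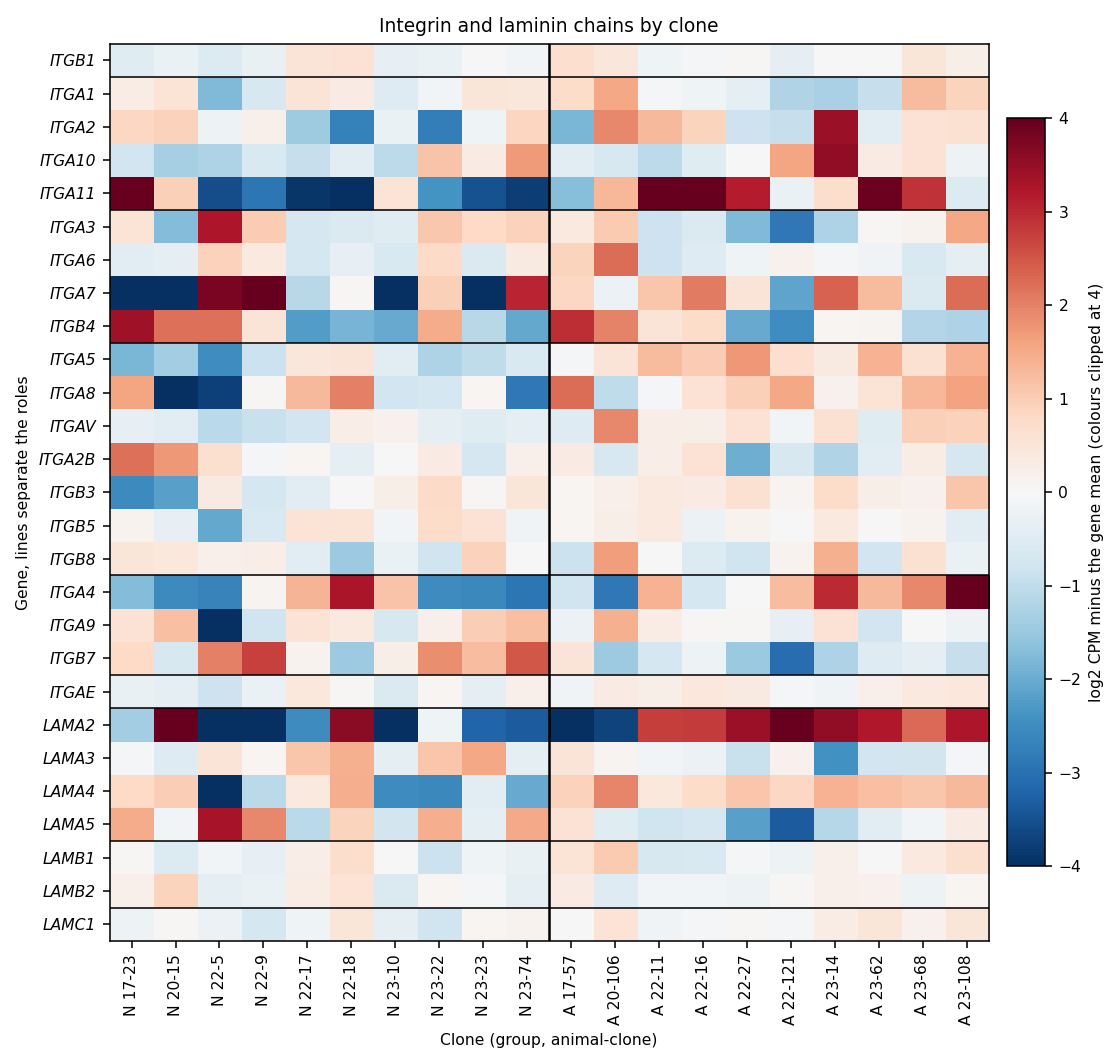
Heat map of 27 tested integrin and laminin chains (rows, grouped by role) in the 10 N and 10 A clones (columns, named by animal and clone), coloured by log2 CPM minus the mean of that gene over all clones, with colours clipped at 4. ITGA5 is mostly red in A and mostly blue in N clones, LAMA5 and ITGB7 show the opposite, and ITGA7, ITGA11 and LAMA2 run from deep red to deep blue within the N group.

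The chain with the smallest adjusted p was ITGA5, which pairs with the beta 1 chain to form the classical fibronectin receptor. Its level ranged from 355 to 2837 CPM in N clones, with a median of 1034 CPM, and from 1920 to 6590 CPM in A clones, with a median of 3567 CPM. The lowest N clone was 22-5, and the overlap was due to N clones 22-17 (2723 CPM) and 22-18 (2837 CPM), so that 7 of 10 A clones were above all N clones. The mean was 1286 ± 851 CPM in N and rose to 3913 ± 1476 CPM in A clones (SD, n = 10 each), a log2 fold change of 1.65 (standard error, SE, 0.29, adjusted p = 0.00200). The difference of mean log2 CPM was almost the same in each animal, at 1.78, 1.91, 1.76 and 1.77 in animals 17, 20, 22 and 23. Animals 17 and 20 had 1 clone per group, and the SD between clones of the same animal and condition was 0.81 on this scale. No weight is therefore put on how close these values were. ITGA5 kept its call without N clones 22-5 and 22-9 (log2 fold change 1.47, adjusted p = 0.00189, edgeR). In bulk RNA, fewer cells with a transcript and less of it per cell cannot be told apart, here or for any gene below.

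ITGAV, the alpha chain of the vitronectin receptors, rose by less than 2-fold. Its level ran from 334 to 850 CPM in N clones, with a median of 534 CPM, and from 499 to 2675 CPM in A clones, with a median of 959 CPM. A clone 20-106 was far the highest, and 6 A clones were above all N clones. This was a log2 fold change of 0.86 (SE 0.24, adjusted p = 0.0202), with animal 17 at -0.19 and the other 3 animals between 0.76 and 2.35. Without N clones 22-5 and 22-9 the log2 fold change was 0.75 (adjusted p = 0.0656), and without animal 22 it was 0.91 (adjusted p = 0.102).

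None of the tested beta chains that ITGAV can pair with passed the threshold, and ITGB6, another of its partners, had too few counts to be tested with the filter and is given below with the other such chains. ITGB3 had a log2 fold change of 0.75 (SE 0.26) and an adjusted p of 0.0516, just outside the threshold. The adjusted p was 0.0368 to 0.0490 without N clone 22-5, 22-18 or 23-22 or A clone 22-121, 23-62 or 23-68, and reached 0.101 in the other fits that left out a single clone, where the log2 fold change was as low as 0.56 without N clone 17-23. Its A clones spanned 835 to 1738 CPM and its N clones 138 to 1349 CPM, and the 2 lowest N clones, 17-23 at 137.6 CPM and 20-15 at 176.2 CPM, came from the animals with a single pair of clones. Within animals 17 and 20 the difference was 2.60 and 2.38 on the log2 scale, against 0.55 and 0.18 in animals 22 and 23. ITGB5 and ITGB8 had log2 fold changes of 0.01 and 0.14 with SEs of 0.25 and 0.32, so neither could be told from 0. ITGB1 itself, the shared beta chain known on MSCs as CD29, was at 1784 to 3718 CPM in A and 1584 to 3459 CPM in N clones, with a log2 fold change of 0.22 (SE 0.18, adjusted p = 0.385).

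ITGA8, an RGD receptor chain of mesenchymal and smooth muscle cells, spread over 27.8 to 267 CPM in A clones and 1.84 to 227 CPM in N clones (log2 fold change 1.07, SE 0.58, adjusted p = 0.194, and 0.0498 without animal 22). The platelet chain ITGA2B was near the detection limit in both groups, at a median of 0.416 CPM in A and 0.747 CPM in N clones, with a log2 fold change of -0.81 (SE 0.38, adjusted p = 0.136). Of the 7 fibronectin and RGD-binding chains tested, 2 were therefore called in either direction, or 28.6%, beside 20.6% of all genes. Both were higher in A clones and none was lower, where 1333 of all 12900 genes were called higher. The median log2 fold change of the 7 chains was 0.75, with 6 fitted higher and 1, ITGA2B, fitted lower.

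**Figure D2:**
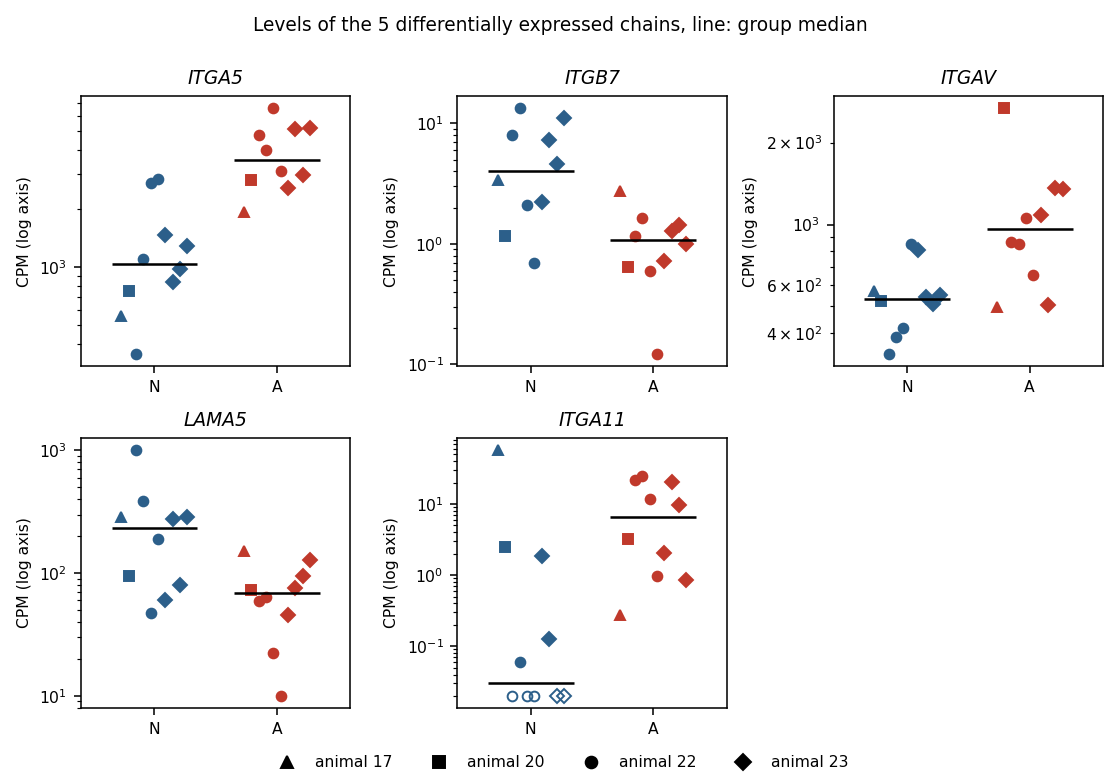
CPM of 5 differentially expressed chains in each clone on log axes, N clones in blue and A clones in red, with the animal shown by the marker shape and a line at the group median. Open symbols for ITGA11 mark 5 N clones with a count of 0, drawn at the foot of the axis. In each panel the groups overlap, and ITGA5 has 7 of 10 A clones above every N clone.

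LAMA3 and LAMB3 encode an alpha and a beta chain of the laminin of epithelial basement membranes. With the filter applied, LAMA3 was not differentially expressed and LAMB3 was not tested. LAMA3 was at 17.6 to 138 CPM in A clones, with a median of 84.8 CPM, and at 67.0 to 279 CPM in N clones, with a median of 118 CPM. This was a log2 fold change of -0.93 (SE 0.36) that missed the threshold at an adjusted p of 0.0739, and passed it at 0.0447 to 0.0464 without either clone of animal 17 or 20. Those are the animals in which LAMA3 was higher in the A clone, by 0.61 and 0.64 on the log2 scale, against -1.04 and -1.47 in animals 22 and 23. LAMB3 did not pass the expression filter. It was at 0.0655 to 2.25 CPM in A clones and 0 to 0.847 CPM in N clones, with 206 counts over all A clones and 66 over all N clones.

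LAMA5, the alpha chain of a widespread adult basement membrane laminin, was lower in A clones. It ranged from 47.8 to 1004 CPM in N clones, with a median of 234 CPM, and from 9.99 to 150.9 CPM in A clones, with a median of 68.2 CPM. N clones 22-5 (1004 CPM) and 22-9 (390 CPM), the pair rich in mesothelial markers, were the highest of all, and 3 A clones were below all N clones. The log2 fold change was -1.87 (SE 0.60, adjusted p = 0.0357), with every animal in the same direction, from -0.37 in animal 20 to -3.00 in animal 22. The fold change was -1.13 without N clones 22-5 and 22-9 (adjusted p = 0.0814), which lost the call. The call was also lost, at adjusted p-values of 0.0545 to 0.0689, when N clone 22-9, 23-22 or 23-74 or A clone 22-11, 22-16, 22-27 or 23-14 was left out alone. Without animal 22 the log2 fold change was -0.90 (adjusted p = 0.174).

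LAMA4, the alpha chain of laminins of vessels, adipose tissue and muscle, had a fold change of the opposite sign that did not pass the test. Its A clones formed a narrow band of 420 to 1219 CPM, with a median of 679 CPM, whereas N clones extended from 5.08 CPM in 22-5 to 848 CPM in 22-18, with a median of 188 CPM. That gave a log2 fold change of 1.48 (SE 0.61, adjusted p = 0.0898), with an adjusted p of 0.0231 when N clone 22-18 was left out, and 2.13 with an adjusted p of 0.0333 without animal 22. All 4 N clones of animal 23 were at or below 229.1 CPM and all 4 A clones of that animal were at or above 679.4 CPM. The share of all genes that separate the clones of animal 23 in this way is not given here, so no weight is put on it. In animals 17 and 20 the N clones were at 544.2 and 613.4 CPM, both within the A range.

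LAMA2, the alpha chain of the basement membrane around muscle and nerve fibres, was either clearly present or nearly absent. In animals 22 and 23 all 8 A clones were at 18.5 to 63.3 CPM, while 7 of the 8 N clones were at or below 3.28 CPM and N clone 22-18 was at 47.2 CPM. Animals 17 and 20 ran the other way, with A clones at 0 and 0.196 CPM and N clones at 1.36 and 81.7 CPM. Over all clones LAMA2 had a log2 fold change of 2.35 (SE 1.43, adjusted p = 0.246). It was 4.82 with an adjusted p of 0.0295 when N clone 22-18 was left out.

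The other tested laminin chains described here varied less between clones. LAMB1, LAMB2 and LAMC1 encode the beta and gamma chains that most laminin trimers share. LAMB1 had a log2 fold change of 0.24 (SE 0.22), and of 0.76 (adjusted p = 0.0387) without animal 22. The log2 fold change was -0.09 for LAMB2 (SE 0.17) and 0.31 for LAMC1 (SE 0.15, adjusted p = 0.146, and 0.0208 without N clone 22-18). LAMC1 lay between 902 and 1440 CPM in A clones and between 574 and 1397 CPM in N clones. The SD of log2 CPM between clones of the same animal and condition was 0.29 to 0.35 for these 3 genes, while the 4 tested alpha chains had SDs of 0.80 to 2.23.

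**Figure D3:**
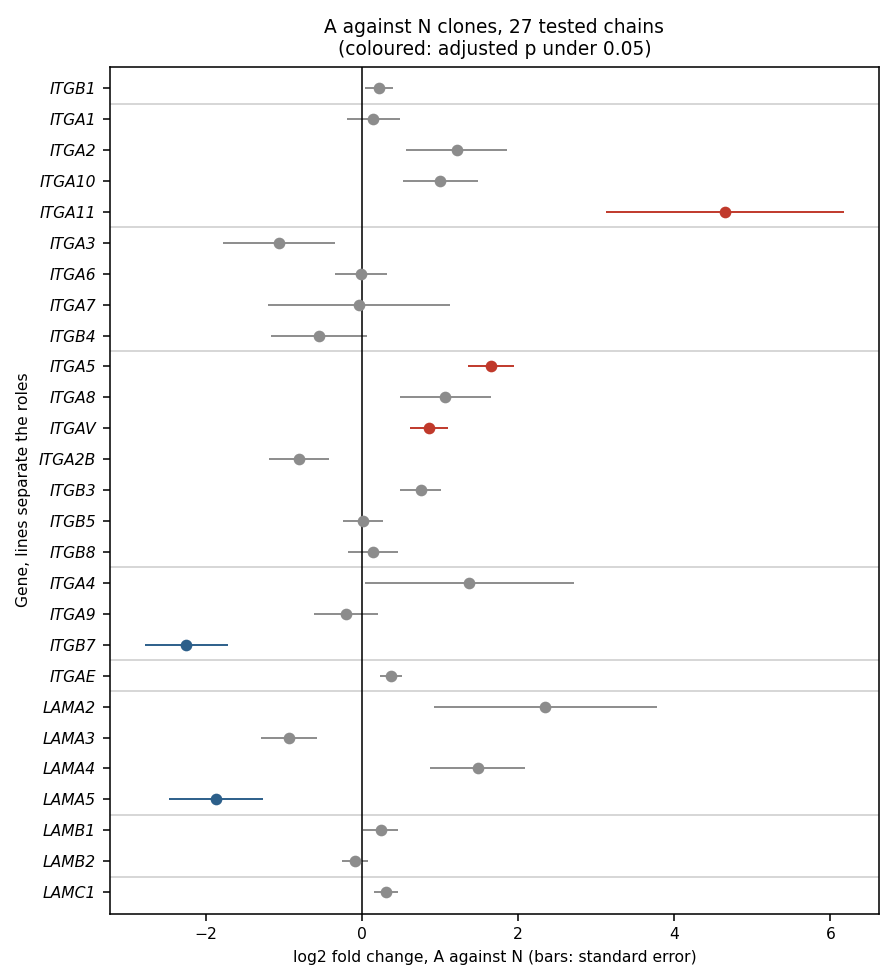
Fitted log2 fold change of A against N clones for each of 27 tested chains (points, grouped by role), with bars of 1 standard error and colour where the adjusted p was under 0.05 (red higher, blue lower in A clones). ITGA11 has the largest fold change, 4.65, and the widest error of the 5 coloured chains, while ITGA5 and ITGAV have the smallest errors among them.

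Of the 4 collagen-binding alpha chains, ITGA11 was higher in A clones. ITGA11 is a fibrillar collagen receptor of fibroblasts and MSCs. It was detected in all 10 A clones, at 0.272 to 24.9 CPM with a median of 6.52 CPM. Of the N clones, 5 had a count of 0. The limit that a count of 0 allows, 3 counts, corresponds to 0.0764 to 0.216 CPM over the libraries of all 20 clones. A further pair were at or below 0.126 CPM, and the highest level of any clone was 57.2 CPM in N clone 17-23. The log2 fold change was 4.65 (SE 1.52, adjusted p = 0.0398, edgeR). How far this value depends on the handling of counts of 0 was not tested. The difference of mean log2 CPM was 6.55 and 4.02 within animals 22 and 23 and 0.37 in animal 20, but -7.13 in animal 17.

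Of the 5 calls, that of ITGA11 was lost most often when single clones were left out. Without the animal block the log2 fold change was 0.63 (adjusted p = 0.765), and without N clones 22-5 and 22-9 the adjusted p was 0.130. Without animal 22 the log2 fold change was 2.54 (adjusted p = 0.375). It was lost, at adjusted p-values of 0.0527 to 0.0790, in 12 of the 20 fits that left out a single clone. These were the fits without N clones 22-5, 22-9, 22-17, 22-18, 23-22, 23-23 or 23-74 and without A clones 22-11, 22-16, 22-27, 23-62 or 23-68. In animals 22 and 23 alone, the lowest A clone (0.842 CPM, 23-108) was under the highest N clone (1.83 CPM, 23-10).

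The other collagen-binding chains did not pass the threshold. ITGA1 was abundant in both groups, at 230 to 1640 CPM in A and 165 to 813 CPM in N clones (log2 fold change 0.14, SE 0.34). ITGA2 was at 2.38 to 99.6 CPM in A and 1.2 to 17.1 CPM in N clones (log2 fold change 1.21, SE 0.65, adjusted p = 0.187). ITGA10, known from cartilage, had a log2 fold change of 1.0 (SE 0.48, adjusted p = 0.144). A clone 23-14 was the highest clone for both, with 99.6 CPM of ITGA2 and 87.9 CPM of ITGA10, and the fold changes without it were 0.54 and 0.40.

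None of the 4 laminin-binding integrin chains tested passed the threshold. ITGA6 had a log2 fold change of -0.01 (SE 0.33), with levels of 159 to 1335 CPM in A and 172 to 528 CPM in N clones, and its sign changed between settings. ITGA3, a laminin receptor chain of epithelia, had a log2 fold change of -1.06 (SE 0.72, adjusted p = 0.297). Its highest clone was N 22-5 at 995.9 CPM, and the fold change was -0.43 without that clone. ITGB4, the beta chain of epithelial hemidesmosomes, ranged from 1.52 to 72.1 CPM in A and from 1.88 to 95.7 CPM in N clones (log2 fold change -0.55, SE 0.61). Its highest value in either group came from animal 17.

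ITGA7, the muscle laminin receptor chain, varied more between clones of the same animal and condition than any other chain, with an SD of 2.5 on the log2 scale. N clones 22-9 and 22-5 were the highest at 338 and 297 CPM, followed by N clone 23-74 at 174 CPM, while N clones 20-15, 17-23, 23-10 and 23-23 were at 0.430 to 1.2 CPM. The A clones lay between these extremes, at 4.75 to 108 CPM, which gave a log2 fold change of -0.04 (SE 1.17, adjusted p = 0.985). This sign, too, changed between settings.

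ITGB7 was lower in A clones. It encodes the beta 7 chain of lymphocyte homing receptors, which pairs with the ITGA4 or ITGAE product to bind MAdCAM-1 or E-cadherin. Its level was low throughout, at 0.687 to 13.3 CPM in N clones, with a median of 4.00 CPM, and at 0.122 to 2.72 CPM in A clones, with a median of 1.07 CPM. N clones 22-9, 23-74 and 22-5 were the highest, and 3 A clones were below all N clones. The mean fell from 5.39 ± 4.36 CPM in N to 1.13 ± 0.72 CPM in A clones (SD, n = 10 each). The log2 fold change was -2.25 (SE 0.54, adjusted p = 0.00936), with all 4 animals in the same direction, from -0.28 in animal 17 to -2.22 in animal 22. Without N clones 22-5 and 22-9 it was -1.51 with an adjusted p of 0.0514. Without all 4 clones rich in mesothelial markers it was -1.90 with an adjusted p of 0.0212.

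The alpha chains that can join ITGB7 were not differentially expressed. ITGA4 was detected in 9 A and 5 N clones, with a median of 1.62 CPM in A and 0.0545 CPM in N clones and a maximum of 16.6 CPM in A clone 23-108 (log2 fold change 1.37, SE 1.34, adjusted p = 0.482). ITGAE was at 24.8 to 36.6 CPM in A and 15.3 to 36.7 CPM in N clones (log2 fold change 0.37, SE 0.14, adjusted p = 0.0697, and 0.0255 without N clone 22-17). ITGA9, a receptor chain for tenascin and related ligands, was at 7.66 to 35.6 CPM in A and 0.452 to 30.95 CPM in N clones (log2 fold change -0.21, SE 0.41).

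A group of 9 chains had too few counts to be tested with the filter. The leukocyte chains ITGAL, ITGAM, ITGAD and ITGB2 and the gamma 3 chain LAMC3 had at most 3 counts in any clone. LAMA1, the embryonic laminin alpha chain, had 184 counts over all A and 271 over all N clones, with its highest levels of 8.88 CPM in N clone 17-23 and 4.92 CPM in N clone 23-22. ITGB6, an epithelial beta chain, had 13 counts over all A and 2 over all N clones. ITGAX, the alpha chain of a macrophage and dendritic cell integrin, had 231 counts over all A and 24 over all N clones and was above every N clone in 7 A clones. Its highest levels were 3.65 CPM in A clone 22-11 and 2.82 CPM in A clone 23-62. Its partner chain ITGB2 was at 0 to 3 counts in those and all other clones, and summed leukocyte and macrophage markers ranged from 12.9 to 575 CPM in A and from 2.51 to 330 CPM in N clones, with LCP1 alone reaching 572 CPM.

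In a fit without the filter, on 23383 genes, 3 of these chains were higher in A clones past both thresholds: ITGAX (log2 fold change 3.10, adjusted p = 0.0137), LAMB3 (log2 fold change 1.77, adjusted p = 0.0239) and ITGB6 (adjusted p = 0.0491, edgeR's quasi-likelihood test). In that fit 5.46% of all genes passed both thresholds. With the wider multiple testing correction, ITGA11 (adjusted p = 0.0619) and LAMA5 (adjusted p = 0.0564) were not past the threshold.

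The clones rich in mesothelial markers took extreme places for several chains, as the plots of chain level against the summed markers show. N clone 22-5 was the highest of all 20 clones for LAMA5 and ITGA3 and the lowest for LAMA4, ITGA5, ITGAV, ITGB1, ITGA1, ITGB5, ITGAE and ITGA9. N clone 22-9 was the highest for ITGA7 and ITGB7. A clones 22-11 and 22-16, with 1217 and 1059 CPM of the same markers, did not share these extremes, with LAMA5 at 59.2 and 63.9 CPM and LAMA4 at 420 and 520 CPM. Without these 4 clones LAMA5, ITGB7 and ITGA5 kept their direction, with log2 fold changes of -1.37 (adjusted p = 0.0770), -1.90 (adjusted p = 0.0212) and 1.57 (adjusted p = 0.00446).

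**Figure D4:**
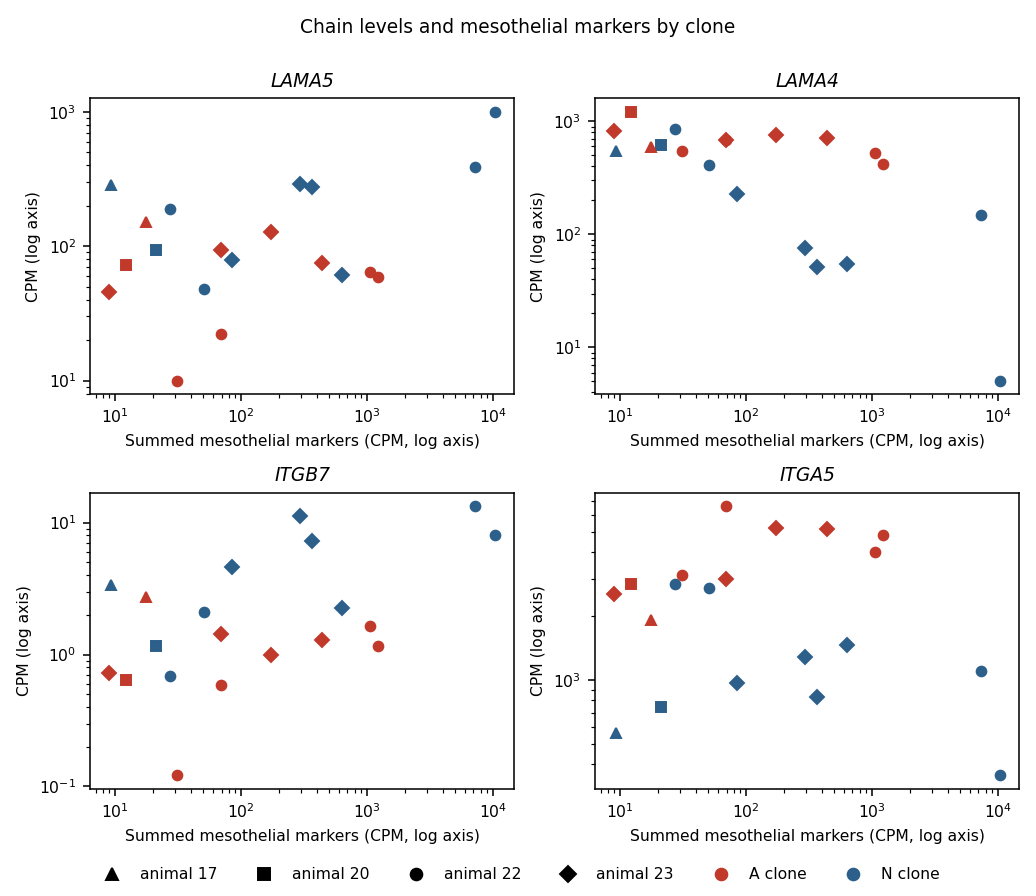
CPM of LAMA5, LAMA4, ITGB7 and ITGA5 in each of the 20 clones against the summed CPM of 11 mesothelial markers, all on log axes, with A clones in red, N clones in blue and the animal shown by the marker shape. N clones 22-5 and 22-9 are the 2 points farthest right, with the highest LAMA5, and 22-5 has the lowest LAMA4 and ITGA5.

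Differences between the animals were then examined for the same chains. In animals 22 and 23, which had 4 clones per condition, none of the 27 chains passed an adjusted p of 0.05 for the interaction of condition and animal. Among all genes, 4 of 12915, or 0.031%, did. The unadjusted p was under 0.05 for 4 chains, LAMB1, ITGA4, ITGA11 and ITGA3, beside 9.06% of all genes. LAMB1 had a difference of 0.64 on the log2 scale in animal 23 and -0.50 in animal 22 (interaction p = 0.00456, adjusted p = 0.333, edgeR's quasi-likelihood test). As the plot of differences within each animal shows, ITGA5, ITGB7 and LAMA5 had the same direction in all 4 animals, whereas ITGAV and ITGA11 were reversed in animal 17. With animal 23 left out, none of the 27 tested chains and 32 of 13071 genes, or 0.245%, were differentially expressed (edgeR). In that fit 6 of the chains, or 22.2%, had an unadjusted p under 0.05, beside 20.9% of all genes. With counts summed per animal and condition, 4 sums a group, no gene was differentially expressed at an adjusted p under 0.05 (edgeR). In that fit 29 chains were tested, and 8 of them, or 27.6%, had an unadjusted p under 0.05. Among all genes it was 2243 of 14669, or 15.3%.

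**Figure D5:**
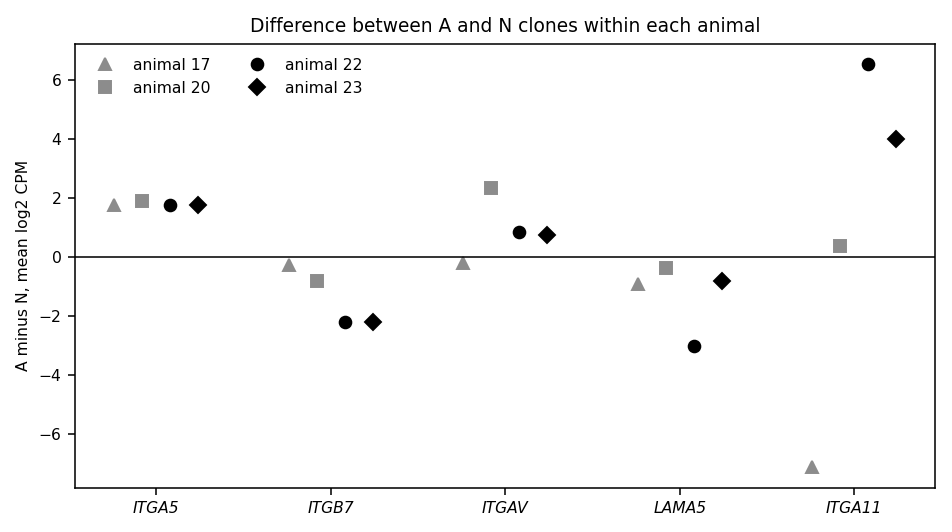
Mean log2 CPM of A clones minus that of N clones within each animal (1 clone per group in animals 17 and 20, grey, and 4 per group in animals 22 and 23, black) for 5 differentially expressed chains. ITGA5 is at 1.76 to 1.91 in every animal, and ITGA11 runs from -7.13 in animal 17 to 6.55 in animal 22.

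Chains that form 1 protein were compared across clones, to see whether their RNAs vary together. Log2 CPM was centred within animal and condition in the 16 clones of animals 22 and 23, and 9 pairs were tested. None passed an adjusted p of 0.05. ITGA5 and ITGB1 gave r = 0.744 (permutation p = 0.0633, adjusted p = 0.285) and rho = 0.624 (permutation p = 0.0778, adjusted p = 0.311). That relation rested on animal 22 (r = 0.939, against -0.220 in animal 23), and r was 0.461 without N clones 22-5 and 22-18. LAMB1 and LAMC1 gave r = 0.698 (permutation p = 0.0201, adjusted p = 0.181) and rho = 0.518 (permutation p = 0.0885, adjusted p = 0.311), with r = 0.858 in animal 22 and 0.495 in animal 23. Without N clones 23-22 and 22-9 their r was 0.471. The other pairs had r between -0.399 (LAMA5 and LAMB2) and 0.482 (ITGA6 and ITGB4).

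Some of the genes that work with integrins inside the cell were called, in both directions. Of 26 genes of the adhesion complex tested, 7 were differentially expressed, or 26.9%, beside 20.6% of all genes, with 3 higher and 4 lower in A clones. None was past 2-fold as well, beside 5.76% of all genes. The higher genes were VCL (vinculin, log2 fold change 0.81, adjusted p = 0.0128), FERMT2 (kindlin-2, 0.83, adjusted p = 0.0422) and ZYX (zyxin, 0.50, adjusted p = 0.0356). The lower genes were KANK1 (log2 fold change -0.76, adjusted p = 0.00672), PTK2 (focal adhesion kinase, -0.34, adjusted p = 0.00746), TNS2 (tensin-2, -0.73, adjusted p = 0.0209) and FERMT1 (kindlin-1, -0.75, adjusted p = 0.0399). PTK2 was at a median of 121.7 CPM in N and 96.6 CPM in A clones, and 9 A clones were below all N clones. TLN1, the talin that activates integrins, had a log2 fold change of 0.24 (SE 0.16, adjusted p = 0.287). Apart from FERMT2 and TLN1, these genes were chosen after their values were seen, as were EGFL7 and CD68 above and SPARC and CD63 below.

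Among 17 tested partners of laminins in basement membranes, 3 were differentially expressed in either direction, or 17.6%, beside 20.6% of all genes. All 3 were higher in A clones, where 1333 of all 12900 genes were called higher. Past both thresholds, 2 were higher, or 11.8%, beside 3.95% of all genes, and none was lower. NID2 (nidogen-2, which links laminin to type IV collagen) ranged from 149 to 1070 CPM in N and from 885 to 2962 CPM in A clones, with 9 A clones above all N clones. It had a log2 fold change of 1.95 (SE 0.32, adjusted p = 0.00125). COL18A1, a basement membrane collagen, ranged from 0.189 to 35.9 CPM in N and from 7.94 to 499.8 CPM in A clones, with a log2 fold change of 4.05 (SE 0.85, adjusted p = 0.00492) and 9 A clones above every N clone. SPARC, which binds collagens, had a log2 fold change of 0.49 (adjusted p = 0.0128). COL4A1, a main type IV collagen chain, was at 1295 to 6467 CPM in A clones and at 0 to 6305 CPM in N clones (log2 fold change 1.70, SE 0.82, adjusted p = 0.145).

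None of the 18 tested integrin ligands other than laminins passed the threshold (edgeR), beside 20.6% of all genes. Of the 18, 4 had an unadjusted p under 0.05, where the share of all genes was 36.1%. FN1, the fibronectin bound by the ITGA5 receptor, was at 3216 to 16580 CPM in A and at 1546 to 10700 CPM in N clones, with a log2 fold change of 0.47 (SE 0.32, adjusted p = 0.299). Of 11 hemidesmosome genes and integrin-associated tetraspanins tested, 1 was differentially expressed, or 9.09%, beside 20.6% of all genes. This was CD63, which was higher in A clones (log2 fold change 0.39, adjusted p = 0.0135, edgeR).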

How the data were processed

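The deposited values are raw counts per gene and clone. The authors trimmed reads of directional NEBNext libraries (2 x 150 bp, NovaSeq) with Trimmomatic 0.36, mapped them with STAR 2.5.2b to the bovine genome (ARS-UCD1.2) and counted unique exonic reads with Subread 1.5.2. The strand setting is not given in the sources used here, so overlapping or antisense genes are uncertain. A single row without a gene name (0.113% to 0.333% of counts) was left out, and 0 columns were unused.

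From these counts, A and N clones were compared with edgeR 4.0.16 in R 4.3.3 (TMM, default filter on the condition, robust quasi-likelihood F test, animal as a block, Benjamini-Hochberg over 12900 genes). Thresholds were an adjusted p under 0.05 and a 2-fold change. Log2 CPM used a prior count of 2. A and N clones were paired by animal, and their deviations from the group means had correlations of 0.254, 0.188, 0.23 and 0.444 (animals 17, 20, 22 and 23). Clones of the same animal are not separate animals, so p-values measure mainly the spread between clones. Correlations of partner chains used 100000 permutations within animal and condition.

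Of the 37 members, 36 are described, and the result for 1 member is not reported here. From each partner list, counts and at most 4 genes past both thresholds were to be named, plus FN1, COL4A1, TLN1 and FERMT2. Members and lists were chosen with earlier results of these data known. Alternatives were no block, DESeq2 size factors, other filters, DESeq2 1.42.0, summed counts, and animals or clones left out. The edgeR and DESeq2 tests with the animal block and the interaction test were first checked on simulated counts. The correlations of partner chains were not. The limits for a count of 0 are for counting error alone. No coordinates or sequences are given, since the reference table used for names is of another assembly.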

Additional observations from a re-analysis of the deposited data

Results flagged for a closer look

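Levels of the 27 tested chains were examined for single clones far from the rest of their group, as the gap to the nearest clone over the whole range of its group, both in log2 CPM. A ratio above Dixon's critical value for 10 samples drew a closer look. Of 54 gene and group combinations, 4 passed, where chance gives about 2.7 (1 in 20).

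In 3 of the 4 the clone was N 22-5, the clone with the most mesothelial marker RNA, as the lowest of the N group. ITGA9, the tenascin receptor chain, was at 0.452 CPM there and at 7.50 to 30.95 CPM in the other 9 N clones (ratio 0.6495). ITGB5, a vitronectin receptor beta chain, was at 65.7 CPM against 178 to 458 CPM (ratio 0.5139). ITGA1, a collagen receptor chain, was at 165 CPM against 364 to 813 CPM (ratio 0.4964). None of these 3 genes was differentially expressed between A and N clones.

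The fourth was LAMA3 in A clone 23-14, at 17.6 CPM, where the other 9 A clones were at 51.7 to 138 CPM (ratio 0.5225). The same clone had the highest ITGA2 and ITGA10 of all 20 clones.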

How the results depend on the processing

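ITGA5, ITGB7 and ITGAV kept their direction under every alternative that gave them a value (ITGB7 had none with at least 10 counts in every clone) and their call in all 20 fits that left out a single clone. Over those fits, 3 to 8 chains were differentially expressed, with 1 to 4 higher and 1 to 3 lower past both thresholds, and the 8 came without N clone 22-18. The share of all genes called was 15.3% to 24.1% in the same fits. Without the animal block 4 chains were called (1 higher past both), ITGA11 being lost, and this changed no other call. DESeq2's Wald test with the block called 9 chains, adding ITGB3, ITGAE, LAMA3 and LAMA4, beside 27.4% of all genes. Past both thresholds, 4 were higher and 1 lower without a filter on low counts, 1 was higher and 1 lower with at least 10 counts in every clone, and 1 was lower without animal 22, where ITGAV, ITGA11 and LAMA5 lost their calls and LAMA4, LAMB1 and ITGA8 gained one. Without animal 23, and with summed counts, 0 chains were called and 0 were higher or lower past both thresholds. The 2 added alternatives without clones rich in mesothelial markers gave 1 chain (1 higher and 0 lower past both) and 2 chains (1 higher and 1 lower). The interaction gave 0 chains and the correlations 0 pairs under each of their alternatives. The cause of these changes was not tested.

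Signs changed for chains that were not called. ITGA6 had log2 fold changes of 0.34 without the block, 0.0017 with at least 10 counts, 0.76 with summed counts, 0.35 without animal 22, 0.26 without animal 23, and 0.30 and 0.40 without the 2 and the 4 clones rich in mesothelial markers. ITGB5 was at -0.0042 without the block, -0.0504 without animal 20, -0.0853 without animal 22, and -0.20 and -0.18 without the 2 and the 4 clones. ITGA7 was at 2.14 with summed counts, 1.52 without animal 22, and 1.49 and 1.10 without the 2 and the 4 clones. LAMA2 was at -0.65 with summed counts, LAMB2 at 0.0466 without animal 20, ITGA3 at 0.20 without animal 22, and ITGB4 at 0.24 without the 2 clones. Without animal 23, ITGB8 was at -0.0387, LAMB1 at -0.0396 and ITGA9 at 0.0810. With single clones left out, ITGB5 ranged from -0.11 to 0.11, ITGA6 from -0.25 to 0.15, ITGB8 from -0.0686 to 0.29, ITGA7 from -0.43 to 0.93, ITGA1 from -0.0399 to 0.27 and LAMB2 from -0.16 to 0.0467.

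Low counts limit what can be said of the 9 chains left out by the filter, and no setting has more than 4 animals.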

Other observations

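The balance of 2 laminin alpha chains differed between clones, a comparison chosen after the values were seen and given without a test. The log2 ratio of LAMA5 to LAMA4 counts within a clone, not corrected for transcript length and so read only between clones, had a median of -3.14 in A clones (lowest -5.78, highest -1.99). In N clones the median was -0.39 (lowest -3.10, highest 7.62). N clone 22-5 had the highest ratio, with 17788 counts of LAMA5 and 90 of LAMA4. N clones 23-22, 23-74 and 22-9 followed at 2.41, 1.91 and 1.40, and N clones 22-17, 20-15 and 22-18 were within the range of the A clones, at -3.10, -2.71 and -2.15. All 4 N clones of animal 23 lay above the 4 A clones of that animal, with the lowest at -1.52 and the highest A clone at -2.56. How often the ratios of other gene pairs separate these clones is not given here.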
